A study of Mus musculus with 30 samples.

Results

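The 10 genes described here, Klf4, Klf5, Sox9, Runx2, Spp1, Mgp, Tnfrsf11b, Lgals3, Vcam1 and Ly6a, mark or control the phenotype switch of vascular smooth muscle cells (VSMCs) and the calcification of the vessel wall. They were listed by name, no measured value entering the rule, although earlier results of these data were known when the list was made. All 10 were found among the 41128 genes counted in the aorta and in the kidney. Of the 10, 9 passed the filter on low counts in the aorta, where Spp1 did not, and 9 in the kidney, where Tnfrsf11b did not.

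The aorta gave 14 libraries (WT-SFD n = 3, WT-HFD n = 4, KO-SFD n = 3, KO-HFD n = 4) and the kidney 16 (n = 4 in each group), each from 1 male mouse. KO mice came from a cross of Egfr flox/flox C57BL/6 mice, which carry floxed alleles of the epidermal growth factor receptor, with Smmhc-Cre C57BL/6N mice. The labels give the strain background of every sample as C57Bl6J. The Smmhc (Myh11) promoter, that of a smooth muscle myosin, drives this Y-linked and tamoxifen-dependent recombinase, which limits the deletion to smooth muscle of males. WT mice had the Cre but no loxP sites, and both genotypes received tamoxifen for 5 days, so both share the transgene and the drug. Mice aged 6 weeks, 7 days past tamoxifen, were then put on a high-fat diet (HFD) for 18 weeks or were kept on a standard-fat diet (SFD). The study's methods say that aortas were cleared of adjacent tissue after excision. The total count was 6403699 to 13052870 per aorta (median 8998366) and 16354880 to 28331314 per kidney (median 19544128).

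Smooth muscle cells of a healthy artery express contractile proteins. When they are stressed they can give up this programme, divide, secrete matrix and take on traits of cartilage, bone, macrophage or progenitor cells. Zinc finger factors of the Krüppel family drive the loss of the contractile state, Sox9 and Runx2 direct cartilage and bone formation, and proteins such as osteopontin and matrix Gla protein promote or hold back mineral in the wall. In the kidney the same genes serve other cells: tubule cells make osteopontin, and Sox9 is known from tubule cells that repair injury.

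Values are given as FPM, the fragments assigned to a gene per 1000000 counted, scaled by edgeR's TMM factors. A gene is called changed where the quasi-likelihood test of edgeR, adjusted by Benjamini and Hochberg's method over the 14796 genes tested in the aorta or the 15034 in the kidney, gave a p under 0.05. The p values measure the spread between mice. Both tissues are mixtures, so that a change in the number of cells of a type and a change in RNA per cell cannot be told apart. A university facility sequenced the aortas and a company the kidneys, so that tissue and site cannot be told apart, and each tissue was fitted alone. The strand setting of the counting is not stated in the sources used here, so that reads of an overlapping antisense gene cannot be told apart from those of the gene itself.

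The tissue labels were checked against contractile smooth muscle genes. Their summed level was 15975 to 28872 FPM in the aortas, led by Acta2 (smooth muscle actin) at 4235 to 8745 FPM, and 386 to 533 FPM in the kidneys. Tagln, Cnn1 and Tpm1, defining contractile genes as well, are listed at 0 in every library of both tissues, as is every other gene of the regions without counts. The 3 SFD libraries of each genotype in the aorta stood apart from one another in fat tissue. The summed level of 12 adipocyte markers was 5174, 3989 and 171 FPM in WT-SFD aortas and 3138, 1043 and 145 FPM in KO-SFD aortas. It was 185, 174, 303 and 241 FPM in WT-HFD and 107, 219, 173 and 91.9 FPM in KO-HFD aortas. Thus 4 SFD aortas, WT-SFD-1309, WT-SFD-1310, KO-SFD-1319 and KO-SFD-1452, lay above all other aortas in fat cell transcripts. Their most abundant marker, Lpl (lipoprotein lipase), ranged from 42.7 to 1512 FPM over the 14 aortas.

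Egfr, the gene deleted in smooth muscle, was lower in KO aortas (26.8 to 40.6 FPM) than in WT aortas (39.5 to 65.1 FPM). Averaged over the diets it fell by 0.67 on the log2 scale (SE 0.109, edgeR adjusted p = 0.0132), with no overlap between the genotypes within a diet. In the kidney, where smooth muscle is a small part of the tissue, Egfr was at 58.4, 39.1, 50.9 and 53.0 FPM in WT-SFD and at 52.7, 46.7, 60.8 and 54.0 FPM in KO-SFD mice. WT-HFD kidneys had 47.5, 36.9, 56.6 and 42.7 FPM, and KO-HFD kidneys 42.9, 45.5, 40.5 and 43.5 FPM. The KO and WT groups overlapped on both diets, with log2 fold changes of 0.09 on SFD (SE 0.132, edgeR adjusted p = 0.843) and −0.09 on HFD (SE 0.133, edgeR adjusted p = 1.0). The kidney counts therefore do not show the deletion, and the genotype of the kidney libraries could not be checked with this gene.

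Scaled to exon length, the order of the 10 genes differed between the tissues. In the aorta Mgp, encoding the calcification inhibitor matrix Gla protein, came first at 766 ± 203 FPM per kb (SD, n = 14). Ly6a (34.5 ± 11.7 FPM per kb) and Klf4 (14.4 ± 3.12 FPM per kb) followed, and the ranges of these 3 genes did not overlap with each other or with the next. Vcam1 (3.74 ± 1.19 FPM per kb), Tnfrsf11b (3.66 ± 0.961 FPM per kb), Lgals3 (2.33 ± 0.837 FPM per kb), Sox9 (1.10 ± 0.465 FPM per kb), Klf5 (0.850 ± 0.294 FPM per kb), Runx2 (0.457 ± 0.111 FPM per kb) and Spp1 (0.316 ± 0.335 FPM per kb) overlapped with their neighbours in the order. In the kidney Ly6a (380.4 ± 57.7 FPM per kb, SD, n = 16) and Spp1 (265 ± 52.8 FPM per kb) came first and overlapped. Mgp (33.8 ± 7.16 FPM per kb) and Lgals3 (23.6 ± 5.04 FPM per kb) overlapped with each other and lay below Spp1 without overlap. Klf4 (3.83 ± 0.650 FPM per kb) was separate from both neighbours, and Vcam1 (1.03 ± 0.265 FPM per kb), Klf5 (0.601 ± 0.299 FPM per kb), Sox9 (0.373 ± 0.305 FPM per kb), Runx2 (0.166 ± 0.0567 FPM per kb) and Tnfrsf11b (0.127 ± 0.0631 FPM per kb) overlapped from one to the next. Ly6a belongs to a cluster of similar genes, so that its reads may be split between copies and its level is uncertain.

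The start region of Spp1 is shown because Spp1 was last in the aorta and near the top in the kidney. That of Klf4, whose rank moved less, is printed beside it. RefSeq windows of GRCm38.p6 were at hand for 4 of the 10 genes (Klf4, Runx2, Spp1 and Lgals3), and the 250 bases before the start are printed 5′ to 3′ on the strand of the gene. Capitals mark a match to the TATA motif TATAAA. The window of Spp1 lies at chr5:104434861-104435110 on the plus strand and that of Klf4 at chr4:55532476-55532725 on the minus strand.
Spp1: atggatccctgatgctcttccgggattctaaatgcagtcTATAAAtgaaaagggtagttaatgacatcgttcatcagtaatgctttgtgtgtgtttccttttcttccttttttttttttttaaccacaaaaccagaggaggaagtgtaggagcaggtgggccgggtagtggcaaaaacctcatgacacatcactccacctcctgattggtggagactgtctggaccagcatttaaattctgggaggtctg
Klf4: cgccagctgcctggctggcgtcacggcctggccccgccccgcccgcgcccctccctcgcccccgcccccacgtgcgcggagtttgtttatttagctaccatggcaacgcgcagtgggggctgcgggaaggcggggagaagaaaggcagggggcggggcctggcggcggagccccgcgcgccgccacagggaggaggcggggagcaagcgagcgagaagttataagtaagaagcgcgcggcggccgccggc
This Spp1 window held 43.6% G and C, 3 CpG dinucleotides and a TATAAA match 211 bases before the start. A second RefSeq start of Spp1, with its window at chr5:104435942-104436191 (35.6% G and C), had no TATAAA match. The Klf4 window held 74.0% G and C, 32 CpG dinucleotides and no TATAAA match, against a median of 52.4% and 6 CpG over all 32851 windows of the same length. Searched on both strands, TATAAA was found in 12.4% of all windows. The letters CACCC, a core of sites for Krüppel-like factors, were found in 52.0% of all windows, 1 time in the Runx2 window and 2 times in the Lgals3 window, and in neither window printed. The CArG box, the site of serum response factor in contractile genes, was found in 1.47% of all windows and in none of those of the 4 genes. These matches describe letters and not binding.

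Of the 9 genes tested per tissue, HFD changed Sox9 and Vcam1 in the kidney when averaged over the genotypes. Mgp was called in the aorta as well, but that call was lost in 8 of 14 repeats without 1 aorta and with fat cell markers as a covariate. For Egfr deletion none of the genes tested was called in either tissue, which does not show that they were unchanged. Within a single diet the test did not call Egfr itself in the aorta (edgeR adjusted p = 0.531 on SFD and 0.130 on HFD). In the aorta, 0 of 9 were called for HFD against SFD in WT, where 0% of all genes were called by edgeR, and 0 of 9 in KO, where 0% of all genes were called. By unadjusted p under 0.05, 1 of 9 passed in each, against 17.0% of all genes in WT and 7.85% in KO. DESeq2 called 0 of 9 in each, and 666 and 8 of all genes. In WT edgeR itself called 312 of all genes with library totals in place of TMM and 347 without the filter on low counts, and 0 of the 10 listed genes with either. Averaged over the genotypes, 1 of 9 was called in the aorta, against 3.95% of all genes. In the kidney, 1 of 9 was called in WT (0.964% of all genes), 1 of 9 in KO (2.39% of all genes) and 2 of 9 averaged over the genotypes (4.62% of all genes). At the stricter limit of 0.001 used in the study's methods, edgeR called 0% of all genes for the averaged diet effect in the aorta. The study itself reported major changes with HFD in WT aortas and far fewer changed mRNAs in KO aortas. It lists larger SFD groups of aortas than the libraries available here, and it does not name the edgeR test used. Why the counts differ was not tested. In the kidney, edgeR as run here called 0.173% in WT, 0.333% in KO and 1.02% averaged over the genotypes at 0.001. Sox9 was called at this limit in KO and in the average but not in WT.

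For KO against WT, 0 of 9 genes were called by edgeR in the aorta on SFD (0.0811% of all genes), on HFD (0.0811% of all genes) and averaged over the diets (0.196% of all genes). Without adjustment, 0, 2 and 2 of 9 had a p under 0.05, against 6.54%, 5.35% and 7.17% of all genes. In the kidney, 0 of 9 were called on SFD (0.0133% of all genes), on HFD (0% of all genes) and averaged over the diets (0.0133% of all genes), and 1, 0 and 1 of 9 had an unadjusted p under 0.05, against 8.69%, 1.75% and 5.93% of all genes. The diet effect differed between the genotypes for 0 of 9 genes in either tissue by edgeR (0% of all genes in both). Likewise 0 of 9 had an unadjusted p under 0.05 in each, against 4.37% of all genes for aortas and 3.35% for kidneys. DESeq2 called 0 of 9 in each of these comparisons. The median log2 fold change over the 9 genes was 0.18 for HFD averaged over the genotypes in the aorta and 0.04 in the kidney, while that of all genes tested lay between −0.03 and 0.02 in every comparison.

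**Figure D1:**
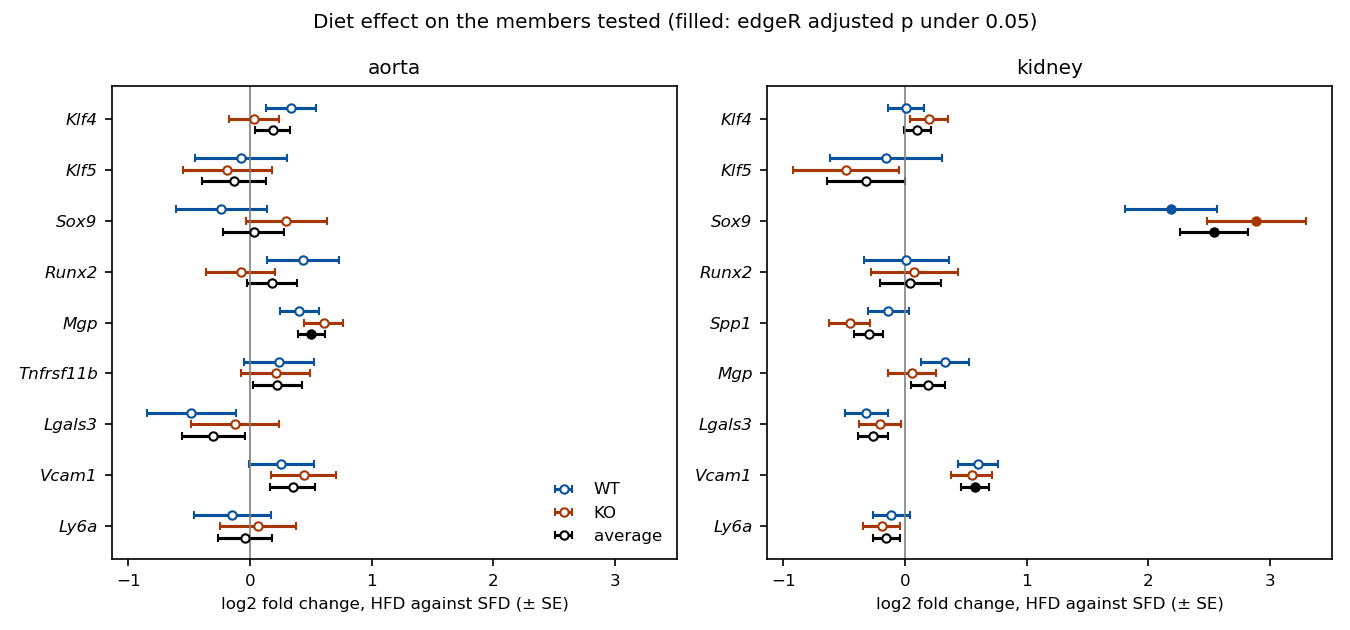
Log2 fold change for HFD against SFD (± SE) of the 9 genes tested in the aorta (left) and in the kidney (right), for WT, KO and their average. Filled points had an edgeR adjusted p under 0.05: Mgp in the aorta (average 0.50), and in the kidney Sox9 in WT, KO and average (2.19, 2.89 and 2.54) and Vcam1 in the average (0.58).

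Sox9 (ENSMUSG00000000567; GRCm38 chromosome 11, 112782224 to 112787760, plus strand), the transcription factor that directs cartilage formation, rose on HFD in the kidneys of both genotypes. In WT-SFD kidneys it was at 0.922, 0.188, 0.651 and 0.314 FPM (0.519 ± 0.332, SD, n = 4) and in WT-HFD kidneys at 2.64, 1.89, 3.07 and 2.25 FPM (2.46 ± 0.509, n = 4). In KO-SFD kidneys it was at 0.482, 0.269, 0.256 and 0.492 FPM (0.375 ± 0.130, n = 4) and in KO-HFD kidneys at 1.25, 3.29, 3.29 and 3.42 FPM (2.81 ± 1.04, n = 4). All 8 HFD kidneys lay above all 8 SFD kidneys, a separation upward that 0.998% of all genes showed. These levels rest on few counts, 3 to 19 per kidney in WT-SFD, 5 to 10 in KO-SFD, 37 to 57 in WT-HFD and 23 to 76 in KO-HFD.

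The log2 fold change of Sox9 was 2.19 in WT (SE 0.379, 4.55-fold, edgeR adjusted p = 0.00632) and 2.89 in KO kidneys (SE 0.410, 7.41-fold, edgeR adjusted p = 0.000822). Averaged over the genotypes it was 2.54 (SE 0.280, 5.81-fold, edgeR adjusted p = 2.67e-05). The effect in KO exceeded that in WT by 0.70 (SE 0.629), a difference that did not pass the test (edgeR unadjusted p = 0.279, adjusted p = 1.0) and ran from 0.38 without WT-SFD-1309 to 0.94 without KO-HFD-1437. KO-HFD-1437, at 1.25 FPM, lay well below the other KO-HFD kidneys, and without it the log2 fold change in KO was 3.13. Leaving out any single kidney left the averaged value between 2.43 and 2.70 and past the threshold. KO against WT gave 0.707-fold on SFD and 1.15-fold on HFD for Sox9 in the kidney, neither past the threshold.

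Tubule segment markers were read beside Sox9. The summed level of 6 markers of the loop, the distal tubule and the collecting duct, most abundant among them Umod (uromodulin), was 8038, 8449, 8657 and 6416 FPM in WT-SFD and 6863, 6420.1, 7579 and 5823 FPM in WT-HFD kidneys. In KO it was 9264, 8776, 8733 and 8876 FPM on SFD and 7314, 7622, 4704 and 5835 FPM on HFD. The groups overlapped in WT and did not overlap in KO, where HFD kidneys were lower. Of these 6 genes taken singly, 1 was called for HFD averaged over the genotypes, against 4.62% of all genes. It was Slc12a3, a salt transporter, higher by 0.40 on the log2 scale and called in 10 of 16 repeats without 1 kidney. At an unadjusted p under 0.05 there were 5 of 6, against 18.2% of all genes, and the median log2 fold change was −0.33. Of 6 proximal tubule markers, led by Slc34a1 (phosphate transport), edgeR called 2 for HFD averaged over the genotypes, against 4.62% of all genes. These were Slc5a2 and Slc5a12, which carry glucose and lactate and which rose (log2 fold changes 1.37 and 0.94). With the difference between the segments as a covariate, Sox9 rose by 2.35 averaged over the genotypes (edgeR adjusted p = 0.0064), by 2.04 in WT (edgeR adjusted p = 0.0415) and by 2.66 in KO (edgeR adjusted p = 0.0254). This covariate was built from markers that include Slc12a3, Slc5a2 and Slc5a12, so it partly carries the diet. Why a call is lost with it was not tested.

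Genes of tubule injury were read as well. Of 8 listed, 7 were tested and edgeR called 0 for HFD averaged over the genotypes (4.62% of all genes), with 1 at an unadjusted p under 0.05 (18.2% of all genes) and 1 called by DESeq2, counts near the share of all genes. Their summed level was 387, 436, 357 and 383 FPM in WT-SFD, 371, 468, 322 and 410.0 FPM in WT-HFD, 409.5, 530.2, 406 and 463 FPM in KO-SFD and 424, 439, 529 and 437 FPM in KO-HFD kidneys. Clu (clusterin) was the most abundant at 144 to 304 FPM. Havcr1 (kidney injury molecule 1) had group means of only 0.857 to 1.31 FPM and Lcn2 (lipocalin 2) of 2.86 to 4.71 FPM.

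In the aorta Sox9 was at 3.41, 2.36 and 5.05 FPM (3.61 ± 1.36, SD, n = 3) in WT-SFD and at 2.96, 1.61, 3.02 and 4.60 FPM (3.05 ± 1.22, n = 4) in WT-HFD mice. KO aortas had 4.69, 5.01 and 5.62 FPM (5.11 ± 0.473, n = 3) on SFD and 5.50, 3.76, 7.52 and 8.62 FPM (6.35 ± 2.16, n = 4) on HFD. KO and WT overlapped on both diets, with KO-HFD-1503 the only KO-HFD aorta below the highest WT-HFD aorta. KO against WT gave a log2 fold change of 1.07 on HFD (SE 0.323, 2.10-fold, edgeR adjusted p = 0.637) and of 0.80 averaged over the diets (SE 0.250, 1.74-fold, edgeR adjusted p = 0.495), neither past the threshold. HFD averaged over the genotypes gave 1.02-fold (edgeR unadjusted p = 0.902) for Sox9 in the aorta.

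Klf4 (ENSMUSG00000003032; chromosome 4, 55527143 to 55532466, minus strand), a repressor of contractile genes, passed in no comparison. Its level in the aorta was 34.3, 33.7 and 54.4 FPM in WT-SFD, 61.1, 40.3, 55.8 and 49.1 FPM in WT-HFD, 46.8, 39.7 and 35.3 FPM in KO-SFD and 34.5, 52.8, 45.2 and 33.0 FPM in KO-HFD mice. These 4 groups overlapped with one another. In the kidney it was at 13.3, 15.3, 10.7 and 12.0 FPM (12.8 ± 1.94, SD, n = 4) in WT-SFD and at 12.5, 7.98, 10.8 and 8.14 FPM (9.86 ± 2.20, n = 4) in KO-SFD mice. The WT-HFD kidneys were at 13.4, 11.9, 11.1 and 14.7 FPM, the KO-HFD kidneys at 10.8, 12.1, 10.6 and 11.7 FPM. KO against WT on SFD gave a log2 fold change of −0.36 (SE 0.153, 0.777-fold, edgeR adjusted p = 0.549), within overlapping groups. Averaged over the diets it was −0.27 (SE 0.108, 0.829-fold, edgeR adjusted p = 0.829), again with overlap.

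Klf5 (ENSMUSG00000005148; chromosome 14, 99298691 to 99315036, plus strand), a related factor that favours proliferation, ranged from 2.26 to 8.19 FPM in the aorta, both extremes being WT-SFD mice. In the kidney it ranged from 0.986 to 6.99 FPM, again within SFD mice. Runx2 (ENSMUSG00000039153; chromosome 17, 44495987 to 44814797, minus strand), the factor that directs bone formation, was at 2.77 to 4.33 FPM in WT-SFD, 3.96 to 5.10 FPM in WT-HFD, 3.62 to 4.69 FPM in KO-SFD and 2.19 to 5.73 FPM in KO-HFD aortas. In the kidney Runx2 was at 0.765 to 2.56 FPM over all 16 mice. Neither Klf5 nor Runx2 passed the test in any comparison, and all groups of both genes overlapped for HFD averaged over the genotypes.

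**Figure D2:**
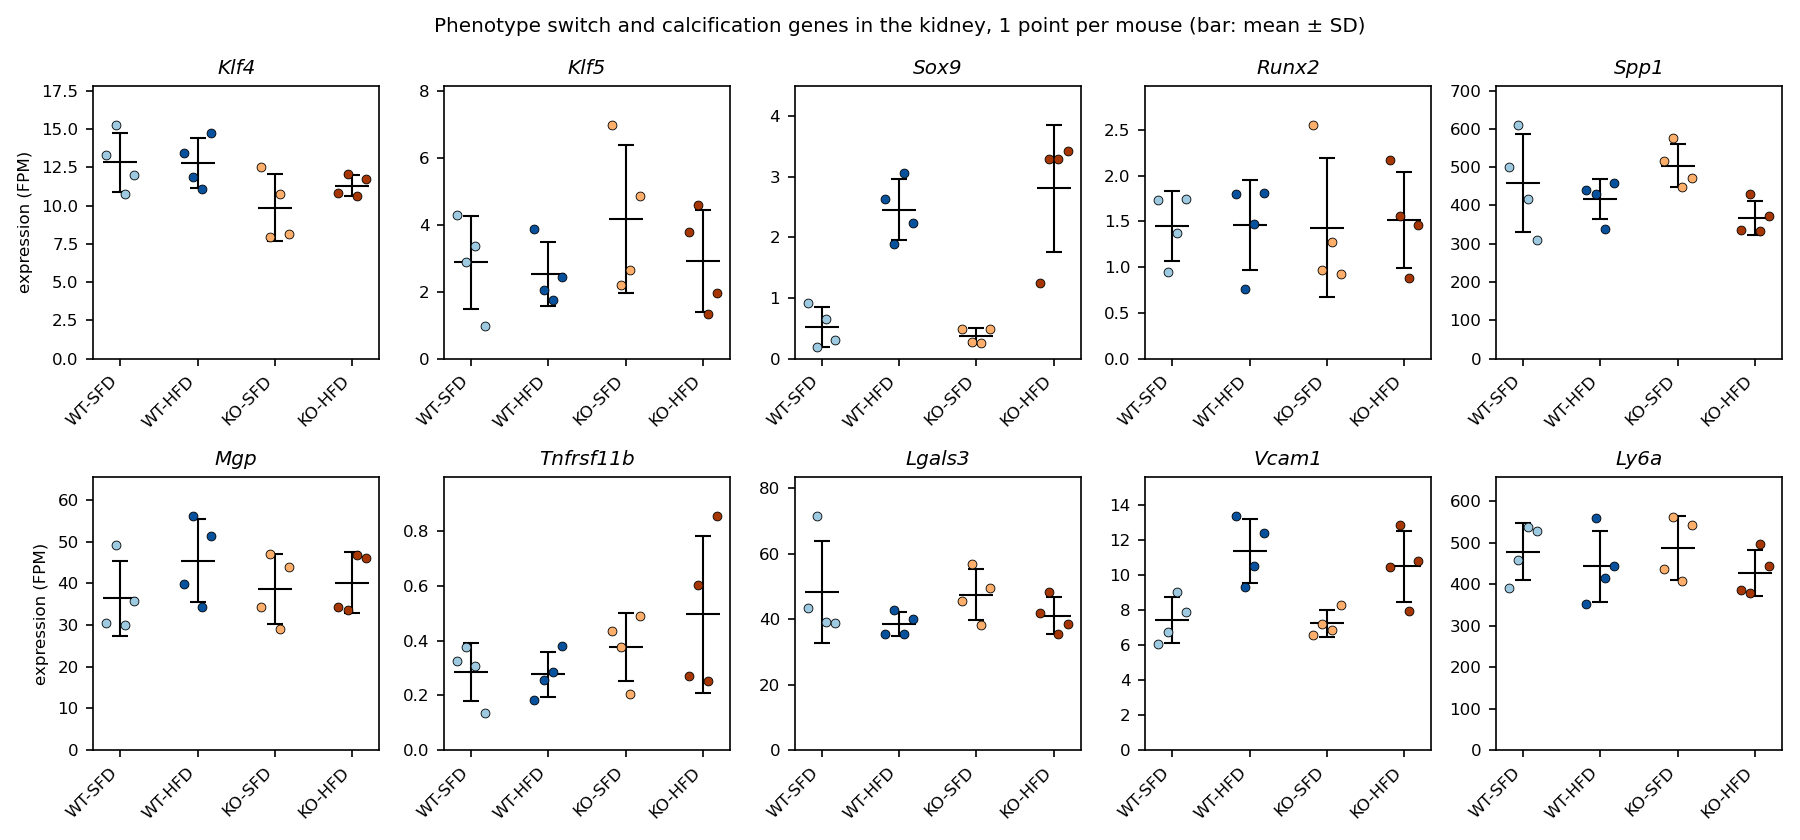
Expression (FPM) of the 10 genes in the kidney in the 4 groups, 1 point per mouse, with mean ± SD as bars and the vertical axis from 0. Sox9 was at 0.188 to 0.922 FPM in all SFD kidneys and at 1.25 to 3.42 FPM in all HFD kidneys.

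Vcam1 (ENSMUSG00000027962; chromosome 3, 116109949 to 116129688, minus strand), an adhesion receptor for leucocytes, rose on HFD in the kidney when averaged over the genotypes. It was at 6.07, 6.72, 9.01 and 7.89 FPM (7.42 ± 1.30, SD, n = 4) in WT-SFD and at 13.3, 9.29, 10.5 and 12.4 FPM (11.4 ± 1.82, n = 4) in WT-HFD kidneys. In KO it was at 6.56, 7.22, 6.85 and 8.30 FPM (7.23 ± 0.763, n = 4) on SFD and at 10.5, 12.8, 7.91 and 10.8 FPM (10.5 ± 2.02, n = 4) on HFD. The WT groups did not overlap, as for 3.02% of all genes in this direction, while in KO the lowest HFD kidney lay below the highest SFD kidney. The averaged log2 fold change was 0.58 (SE 0.117, 1.49-fold, edgeR adjusted p = 0.00738), and it was past the threshold in each of the 22 other analyses of this value. Within the genotypes it was 0.60 in WT (SE 0.164, edgeR adjusted p = 0.124) and 0.55 in KO (SE 0.167, edgeR adjusted p = 0.104), a difference of −0.05 (SE 0.234).

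Macrophage markers were read beside Vcam1. Of 12 tested in the kidney, edgeR called 0 for HFD averaged over the genotypes (4.62% of all genes), with 2 at an unadjusted p under 0.05 (18.2% of all genes) and 1 called by DESeq2, again near the share of all genes. Their sum was 207, 266, 323 and 199 FPM in WT-SFD, 308, 353, 259 and 299 FPM in WT-HFD, 280.1, 317, 247 and 358 FPM in KO-SFD and 266, 391, 233 and 255 FPM in KO-HFD kidneys. Of 7 endothelial markers tested, 0 were called by edgeR, 0 at an unadjusted p under 0.05 and 0 by DESeq2. The part of these cells in the level of Vcam1 was not tested.

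In the aorta Vcam1 was at 19.8, 24.8 and 37.4 FPM in WT-SFD, 31.7, 40.2, 32.1 and 26.5 FPM in WT-HFD, 26.4, 26.9 and 36.4 FPM in KO-SFD and 27.6, 64.0, 35.0 and 36.0 FPM in KO-HFD mice. The groups overlapped, and HFD averaged over the genotypes gave 1.27-fold (edgeR unadjusted p = 0.0823). Ly6a (ENSMUSG00000075602; chromosome 15, 74994877 to 74998031, minus strand), which encodes the progenitor marker Sca1, ranged from 25.4 to 77.3 FPM in the aorta. KO-HFD-1503 had the highest Vcam1, Ly6a, Spp1 and Runx2 of the 14 aortas and also the highest sum of macrophage markers, 406 FPM against 159 to 330.1 FPM in the others, led by Lyz2. The part of macrophages in the levels of these genes was not tested.

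Ly6a in the kidney was at 390.4, 458, 537 and 527 FPM in WT-SFD, 353, 558, 415 and 444 FPM in WT-HFD, 437, 561, 407 and 541 FPM in KO-SFD and 387, 378, 497 and 443 FPM in KO-HFD mice, overlapping throughout. Lgals3 (ENSMUSG00000050335; chromosome 14, 47367751 to 47386160, plus strand) encodes galectin-3, a lectin of macrophages and of smooth muscle cells that take on macrophage traits. In the aorta it ranged from 2.20 to 7.38 FPM. In the kidney it was at 43.4, 71.4, 39.3 and 38.9 FPM in WT-SFD, 35.5, 42.9, 35.6 and 40.1 FPM in WT-HFD, 45.5, 56.7, 38.2 and 49.5 FPM in KO-SFD and 42.0, 48.4, 35.5 and 38.5 FPM in KO-HFD mice. WT-SFD-1446 stood out, and HFD averaged over the genotypes gave 0.834-fold (SE 0.125 on the log2 scale, edgeR unadjusted p = 0.0510), with all groups overlapping.

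Mgp (ENSMUSG00000030218; chromosome 6, 136872435 to 136875823, minus strand), the most abundant of the 10 genes in the aorta, rose there on HFD when averaged over the genotypes. It was at 579, 621 and 782 FPM (661 ± 107, SD, n = 3) in WT-SFD and at 881, 854, 813 and 952 FPM (875 ± 58.5, n = 4) in WT-HFD aortas. KO aortas had 623, 789 and 983 FPM (798 ± 180.5, n = 3) on SFD and 1085, 1212, 1406 and 1155 FPM (1214 ± 138, n = 4) on HFD. Within each genotype every HFD aorta lay above every SFD aorta, a separation upward seen for 4.43% of all genes in WT and 3.45% in KO. The highest SFD value, 983 FPM in KO-SFD-1507, was above all WT-HFD aortas.

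The log2 fold change of Mgp was 0.50 averaged over the genotypes (SE 0.113, 1.42-fold, edgeR adjusted p = 0.0247). It was 0.40 in WT (SE 0.159, 1.32-fold, edgeR adjusted p = 0.201) and 0.60 in KO (SE 0.160, 1.52-fold, edgeR adjusted p = 0.526), and the difference of 0.20 (SE 0.223, edgeR adjusted p = 0.998) was within its error. Every KO-HFD aorta also lay above every WT-HFD aorta (2.15% of all genes), with a log2 fold change of 0.47 (SE 0.146, 1.39-fold) that did not pass over all genes (edgeR adjusted p = 0.637). KO against WT averaged over the diets gave 0.37 (SE 0.112, 1.30-fold, edgeR adjusted p = 0.478), also not past the threshold. For the averaged diet effect, leaving out single aortas gave log2 fold changes from 0.43 without KO-SFD-1319 to 0.60 without KO-SFD-1507. The call for diet was lost in 8 of 14 such repeats, without WT-SFD-1309, WT-SFD-1310, WT-HFD-1442, WT-HFD-1443, WT-HFD-1448, KO-SFD-1319, KO-HFD-1504 or KO-HFD-1505 (edgeR adjusted p = 0.0522 to 0.0915, log2 fold changes 0.43 to 0.52).

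Mgp was lowest in the aortas with the most fat cell transcripts. The 3 aortas with the least Mgp, WT-SFD-1309, WT-SFD-1310 and KO-SFD-1319, had the 3 highest adipocyte sums. The 2 SFD aortas with adipocyte sums near those of HFD aortas, WT-SFD-1445 and KO-SFD-1507, had the highest Mgp of their groups, 782 and 983 FPM, both still below every HFD aorta of the same genotype. Of 12 adipocyte markers tested, 11 were called lower with HFD averaged over the genotypes (median log2 fold change of the 12 −3.56). Of all genes 3.95% were called in this comparison, 530 lower and 54 higher. Without WT-SFD-1309, WT-SFD-1310 or KO-SFD-1319 alone, 0 of the 12 were called, and without any other single aorta 7 to 12. With the adipocyte markers as a covariate the log2 fold change of Mgp was 0.30 and was not called (edgeR adjusted p = 0.835). Every other listed gene called in this comparison also lost its call with this covariate (edgeR adjusted p = 0.563 to 0.960). The loss was thus not particular to Mgp. Diet and fat cell content were thus partly confounded in these aortas.

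**Figure D3:**
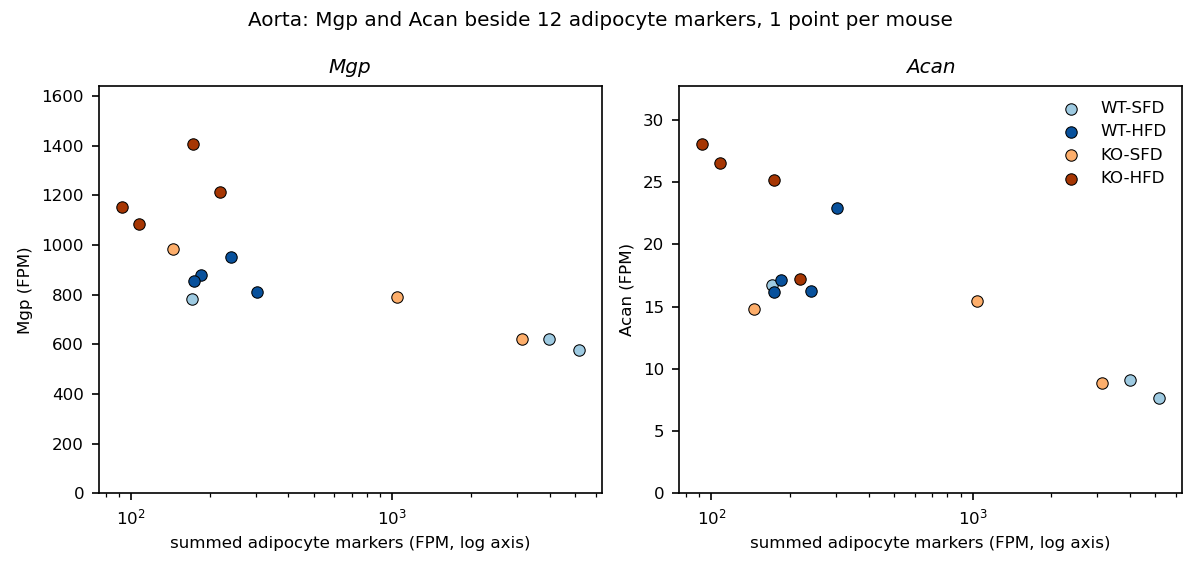
Expression (FPM) of Mgp (left) and of the cartilage proteoglycan gene Acan (right) against the summed level of 12 adipocyte markers (FPM, log axis), 1 point per aorta, coloured by group. The 4 aortas with the highest adipocyte sums (1043 to 5174 FPM) were all SFD, and 3 of them had less Mgp (579, 621 and 623 FPM) than any other aorta.

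In the kidney Mgp was at 30.5, 49.2, 30.1 and 35.8 FPM in WT-SFD, 39.9, 56.0, 34.4 and 51.3 FPM in WT-HFD, 34.2, 47.0, 29.0 and 44.0 FPM in KO-SFD and 34.3, 33.6, 46.8 and 46.0 FPM in KO-HFD mice. These groups overlapped, and HFD averaged over the genotypes gave 1.14-fold (edgeR unadjusted p = 0.188).

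Spp1 (ENSMUSG00000029304; chromosome 5, 104435118 to 104441050, plus strand) encodes osteopontin, a secreted phosphoprotein that binds mineral and integrins. It was barely detected in the aorta, with 6, 6 and 2 counts in WT-SFD, 2, 5, 5 and 0 in WT-HFD, 3, 0 and 1 in KO-SFD and 4, 23, 3 and 7 in KO-HFD libraries. The counts of 0 allow up to 0.384 FPM in WT-HFD-1448 and 0.418 FPM in KO-SFD-1452, taking 3 counts as the limit and covering counting error only. KO-HFD-1503, with 23 counts or 2.16 FPM, was the highest and the next was KO-HFD-1505 at 0.958 FPM. It did not pass the filter on low counts and was left out of the test, and it was not called in the edgeR fit without that filter.

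In the kidney Spp1 was the second most abundant of the 10 per kb. It was at 501, 610.4, 416 and 309.8 FPM (459 ± 127, SD, n = 4) in WT-SFD, 439, 429, 339.8 and 459 FPM (417 ± 52.8, n = 4) in WT-HFD, 517, 577, 449 and 472 FPM (504 ± 56.4, n = 4) in KO-SFD and 336, 430.2, 332 and 372 FPM (368 ± 45.5, n = 4) in KO-HFD mice. Every KO-HFD kidney lay below every KO-SFD kidney, as for 3.85% of all genes in this direction, while the WT groups overlapped. The log2 fold change was −0.45 in KO (SE 0.169, 0.730-fold, edgeR adjusted p = 0.191) and −0.30 averaged over the genotypes (SE 0.119, 0.814-fold, edgeR adjusted p = 0.185), neither past the threshold. With the tubule segment markers as a covariate the value in KO was −0.04.

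Tnfrsf11b (ENSMUSG00000063727; chromosome 15, 54250619 to 54278484, minus strand) encodes osteoprotegerin, the decoy receptor that captures the osteoclast factor RANKL. In the aorta it was at 4.78, 10.0 and 10.4 FPM in WT-SFD, 10.5, 8.04, 8.97 and 12.4 FPM in WT-HFD, 5.76, 11.0 and 14.2 FPM in KO-SFD and 13.1, 11.3, 13.1 and 10.8 FPM in KO-HFD mice. The groups overlapped, and HFD averaged over the genotypes gave 1.17-fold (edgeR unadjusted p = 0.285). The 2 lowest aortas, WT-SFD-1309 and KO-SFD-1319, were among the 3 with the highest adipocyte sums. In the kidney, Tnfrsf11b had 3 to 17 counts per library (0.134 to 0.855 FPM) and was not tested.

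**Figure D4:**
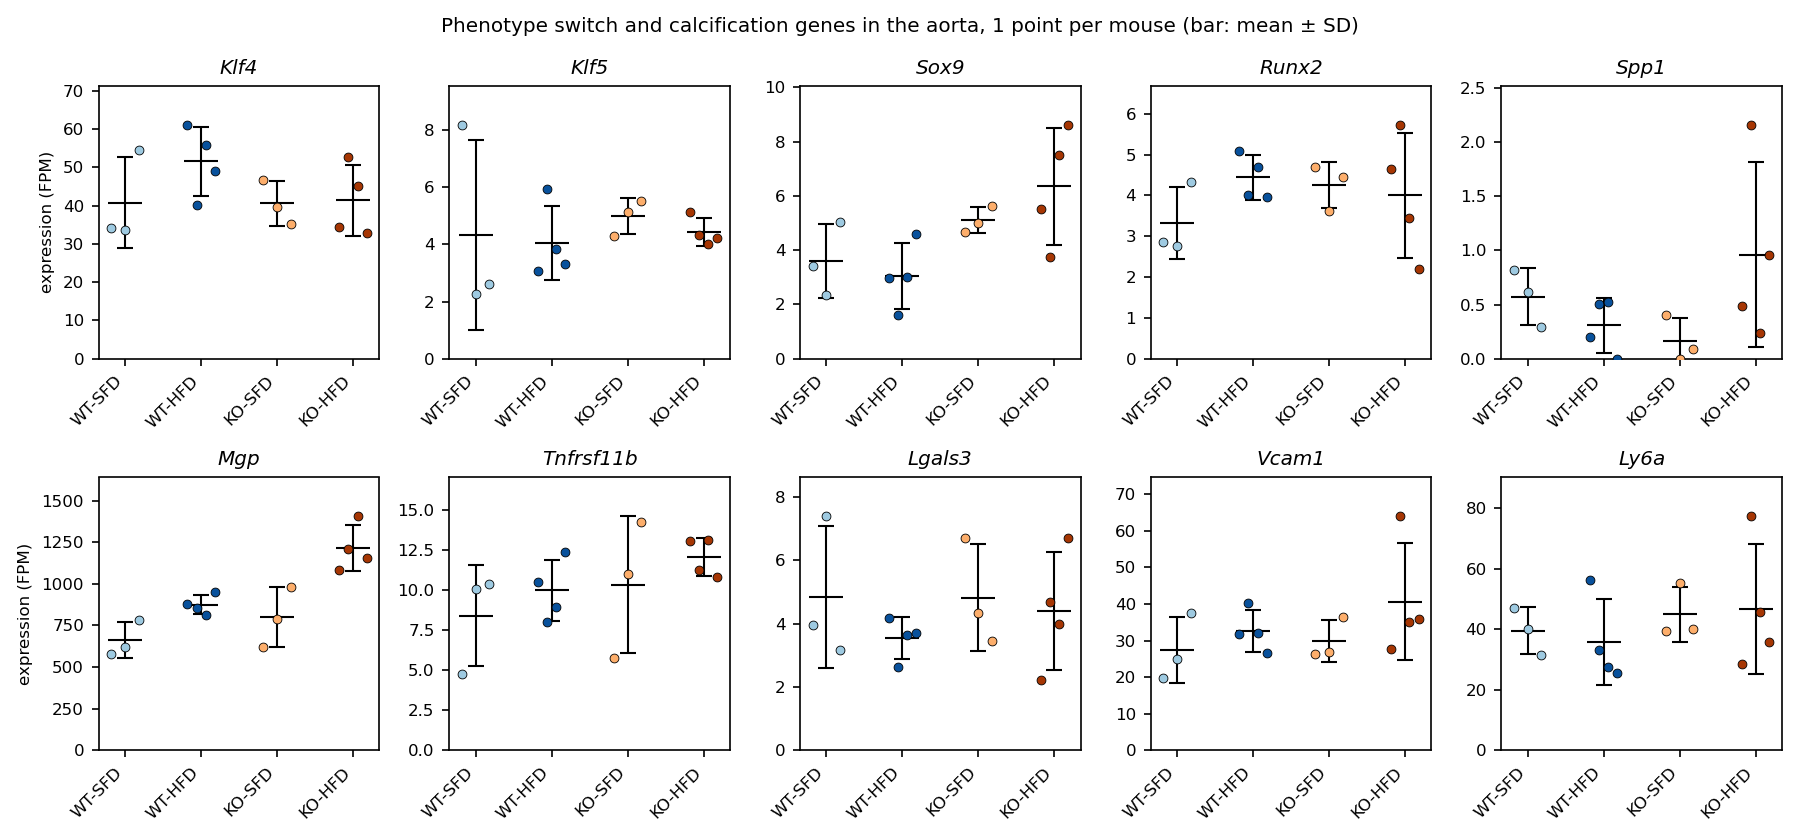
Expression (FPM) of the 10 genes in the aorta in the 4 groups, 1 point per mouse, with mean ± SD as bars and the vertical axis from 0. Mgp was at 579 to 983 FPM in SFD and at 813 to 1406 FPM in HFD aortas, and Spp1 did not exceed 2.16 FPM.

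The genes around these 10 were read from 7 lists of the switch and of calcification, which hold 114 genes, 86 of them tested in each tissue. In the aorta, HFD averaged over the genotypes raised 1 of 86 (Acan) and lowered 1 (Ahr), against 3.95% of all genes called, with a median log2 fold change of 0.19. At an unadjusted p under 0.05 there were 29 of 86, against 18.8% of all genes, and DESeq2 called 7 of 86 and 1007 of all genes. Single aortas moved the edgeR count. It was 25 of 86 (21 higher) without WT-SFD-1445, an SFD aorta with few fat cell transcripts, when 1929 of all genes were called. It was 5 without KO-SFD-1452, 4 without KO-SFD-1507, 3 without KO-HFD-1503 and 0 without any of the other 10. In the single comparisons of the aorta, edgeR called 0 of 86 for HFD in WT, HFD in KO, KO on SFD and KO on HFD. The shares of all genes called were 0%, 0%, 0.0811% and 0.0811%. At an unadjusted p under 0.05 there were 19, 6, 11 and 5 of 86, against 17.0%, 7.85%, 6.54% and 5.35% of all genes, and DESeq2 called 1, 0, 0 and 0. The edgeR count for HFD in WT was not stable, being 22 of 86 (17 higher) without WT-SFD-1445 and 1 without KO-SFD-1319. For KO on SFD it was 2 (1 higher) without WT-SFD-1445. HFD in WT aortas gave values above 0 for 70 of 86 with a median of 0.26, while 48.3% of all genes were above 0. The fat-rich aortas WT-SFD-1309 and WT-SFD-1310 are 2 of the 3 in the control group of this comparison. With the adipocyte covariate, 59 of 86 were above 0 with a median of 0.10, and 0 had an unadjusted p under 0.05. Averaged over the genotypes, 53 of 86 were above 0 with the covariate, with a median of 0.05, against 69 of 86 without it.

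Acan (aggrecan, the main cartilage proteoglycan) was at 7.64, 9.13 and 16.7 FPM (11.2 ± 4.89, SD, n = 3) in WT-SFD, 17.1, 16.2, 22.9 and 16.2 FPM (18.1 ± 3.24, n = 4) in WT-HFD, 8.84, 15.5 and 14.8 FPM (13.0 ± 3.64, n = 3) in KO-SFD and 26.5, 17.2, 25.2 and 28.0 FPM (24.2 ± 4.84, n = 4) in KO-HFD aortas. It rose by 0.80 on the log2 scale averaged over the genotypes (SE 0.189, 1.74-fold, edgeR adjusted p = 0.0288). With the adipocyte markers as a covariate the value was 0.43 and was not called (edgeR adjusted p = 0.835), as for every listed gene called in this comparison. Without single aortas it was 0.69 to 1.00 and called in 4 of 14 repeats, those without WT-SFD-1445, KO-SFD-1452, KO-SFD-1507 or KO-HFD-1503. As with Mgp, the 3 lowest aortas were WT-SFD-1309, WT-SFD-1310 and KO-SFD-1319.

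Ahr, the aryl hydrocarbon receptor, was at 13.1, 8.31 and 5.05 FPM in WT-SFD, 3.47, 3.92, 3.44 and 3.84 FPM in WT-HFD, 8.84, 4.18 and 4.80 FPM in KO-SFD and 2.57, 5.35, 2.48 and 2.46 FPM in KO-HFD aortas. It fell by 1.06 on the log2 scale averaged over the genotypes (SE 0.253, 0.479-fold, edgeR adjusted p = 0.0293), and its 3 highest aortas were again those 3 with the most fat cell transcripts. With the adipocyte covariate the value of Ahr was −0.50 and, like the other listed genes, it was not called (edgeR adjusted p = 0.849). Without single aortas it was −1.24 to −0.87 and called in the same 4 of 14 repeats as Acan. Of 17 contractile genes tested in the aorta, 16 had values above 0 for HFD averaged over the genotypes (median 0.26), while 49.1% of all genes were above 0. Of the 17, edgeR called 0, 9 had an unadjusted p under 0.05, against 18.8% of all genes, and DESeq2 called 1. With the adipocyte covariate, 13 of 17 were above 0 with a median of 0.05, and 0 had an unadjusted p under 0.05. Acta2 was at 4665, 5274 and 4235 FPM in WT-SFD-1309, WT-SFD-1310 and KO-SFD-1319, the 3 aortas with the most fat cell transcripts, and at 6243 to 8745 FPM in the others. The 12 macrophage and 8 fibroblast markers gave 0 calls by edgeR, 0 at an unadjusted p under 0.05 and 0 by DESeq2 in this comparison, and of 7 endothelial markers Kdr (a receptor for vascular endothelial growth factor) fell by 2.75 on the log2 scale (edgeR adjusted p = 0.0168). With the adipocyte covariate Kdr was at −0.38 and was not called (edgeR adjusted p = 0.874), nor was it called without WT-SFD-1309, WT-SFD-1310 or KO-SFD-1319 (−2.42, −2.70 and −2.19).

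In the kidney, HFD averaged over the genotypes raised 5 of 86 listed genes and lowered 0, with a median log2 fold change of 0.07, against 4.62% of all genes called. At an unadjusted p under 0.05 there were 15 of 86, against 18.2% of all genes, and DESeq2 called 7 of 86 and 1101 of all genes. The listed genes as a group were thus called about as often as genes in general. The 5 were Col8a1, a collagen of the vessel wall, Alpl, the alkaline phosphatase that frees phosphate for mineral, Gas6, a vitamin K-dependent ligand of TAM receptors, Lgals3bp, a galectin-3 binding protein, and Tes, an actin-associated protein of the contractile list. In WT, 2 of 86 rose (Col8a1 and Alpl), against 0.964% of all genes called, with 8 at an unadjusted p under 0.05 (8.05% of all genes). In KO, 3 of 86 rose (Col8a1, Alpl and Gas6), against 2.39% of all genes called, with 14 at an unadjusted p under 0.05 (16.1% of all genes). KO against WT gave 0 calls of 86 by edgeR on SFD (0.0133% of all genes) and on HFD (0% of all genes). There were 6 and 1 at an unadjusted p under 0.05 (8.69% and 1.75% of all genes) and 0 calls by DESeq2.

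Col8a1 showed the largest diet effect among these 5 genes. It was at 2.06, 1.45, 2.02 and 1.97 FPM (1.87 ± 0.289, SD, n = 4) in WT-SFD, 11.8, 7.45, 8.36 and 5.40 FPM (8.24 ± 2.65, n = 4) in WT-HFD, 1.45, 1.51, 0.767 and 1.58 FPM (1.33 ± 0.377, n = 4) in KO-SFD and 8.95, 10.3, 14.5 and 8.60 FPM (10.6 ± 2.71, n = 4) in KO-HFD kidneys. All 8 HFD kidneys lay above all 8 SFD kidneys, as for Sox9. The log2 fold change was 2.12 in WT (SE 0.261, 4.33-fold, edgeR adjusted p = 0.000405), 2.99 in KO (SE 0.278, 7.93-fold, edgeR adjusted p = 3.84e-05) and 2.55 averaged (SE 0.191, 5.86-fold, edgeR adjusted p = 1.16e-06). The difference between the genotypes, 0.87 (SE 0.404), did not pass over all genes (edgeR unadjusted p = 0.0459, adjusted p = 1.0).

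Alpl was at 246, 274, 208 and 238 FPM (242 ± 27.3, SD, n = 4) in WT-SFD, 573, 591, 566 and 586 FPM (579 ± 11.4, n = 4) in WT-HFD, 189, 319, 344 and 236 FPM (272 ± 72.1, n = 4) in KO-SFD and 460.5, 575, 875 and 699 FPM (652 ± 178, n = 4) in KO-HFD kidneys, again with no overlap between the diets. It rose 2.40-fold in WT (log2 fold change 1.26, SE 0.191, edgeR adjusted p = 0.00183) and 2.40-fold in KO (1.26, SE 0.191, edgeR adjusted p = 0.00127). Gas6 rose 1.34-fold averaged over the genotypes (0.42 on the log2 scale, SE 0.0917, edgeR adjusted p = 0.0118) and Lgals3bp 1.45-fold (0.54, SE 0.132, edgeR adjusted p = 0.0271). Group means of Gas6 were 451 ± 55.5, 566 ± 67.6, 446 ± 33.8 and 637 ± 109 FPM and those of Lgals3bp 69.3 ± 20.9, 89.3 ± 16.6, 63.7 ± 11.0 and 104 ± 7.47 FPM (SD, n = 4) in WT-SFD, WT-HFD, KO-SFD and KO-HFD kidneys. Tes rose 1.44-fold (0.53, SE 0.117, edgeR adjusted p = 0.0138). With the tubule segment covariate the averaged value of Col8a1 was 2.39 (edgeR adjusted p = 0.0007) and that of Alpl 1.00 (edgeR adjusted p = 0.0141). Gas6 (0.29, edgeR adjusted p = 0.394), Lgals3bp (0.51, edgeR adjusted p = 0.280) and Tes (0.59, edgeR adjusted p = 0.125) were no longer called. The values of Lgals3bp and Tes moved little, and the covariate itself partly carries the diet. Lgals3bp was also not called without WT-SFD-1446, WT-HFD-1535, KO-SFD-1319, KO-HFD-1520 or KO-HFD-1558 (0.48 to 0.53). In KO alone, Alpl had 0.94 with this covariate (edgeR adjusted p = 0.0831). Gas6 in KO had 0.51 (edgeR adjusted p = 0.0469), and was not called when only the KO groups were fitted (edgeR adjusted p = 0.104) or in 11 of 16 repeats without 1 kidney (0.42 to 0.57 over all 16), the call holding without WT-SFD-1446, WT-HFD-1535, WT-HFD-1613, KO-HFD-1437 or KO-HFD-1504.

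**Figure D5:**
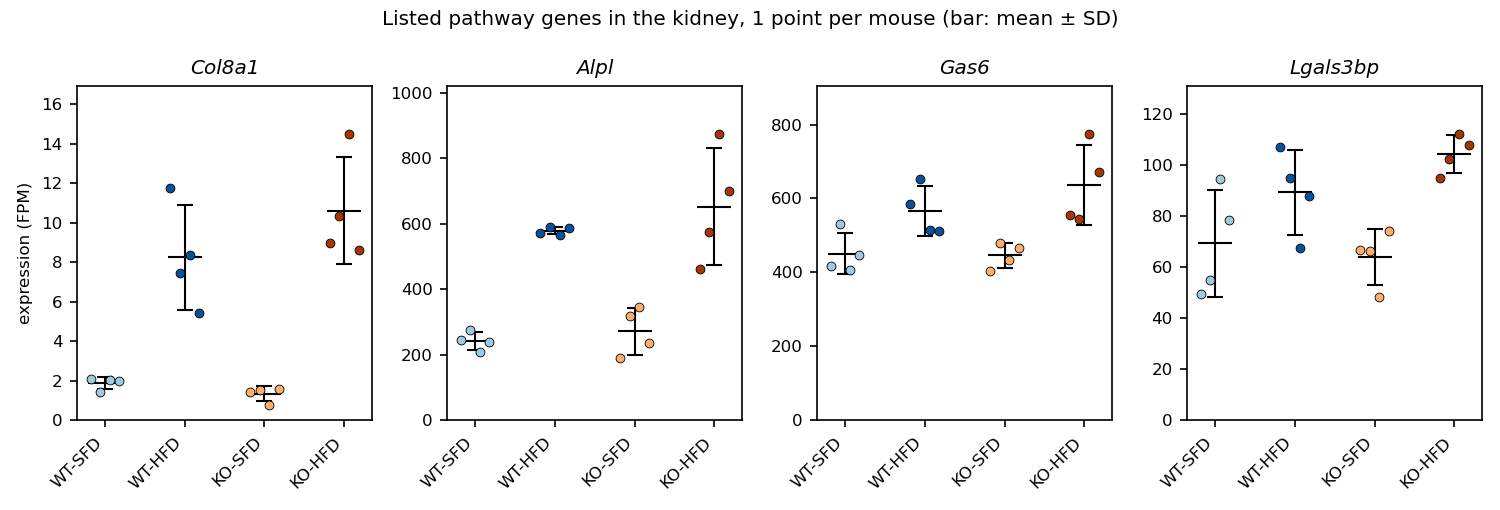
Expression (FPM) of Col8a1, Alpl, Gas6 and Lgals3bp in the kidney in the 4 groups, 1 point per mouse, with mean ± SD as bars and the vertical axis from 0. Col8a1 was at 0.767 to 2.06 FPM in SFD and 5.40 to 14.5 FPM in HFD kidneys, and Alpl at 189 to 344 and 460.5 to 875 FPM.

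Cartilage genes, known as targets of Sox9, were read beside it in the kidney. Acan was listed at 0 in 14 of 16 kidneys, and of 9 cartilage genes tested, edgeR called 0 for HFD averaged over the genotypes (4.62% of all genes), with 1 at an unadjusted p under 0.05 (18.2% of all genes) and 1 called by DESeq2, and a median log2 fold change of 0.05. These counts are near the share of all genes. Of 8 fibroblast markers tested, 1 rose, Col14a1, a collagen that binds fibrils, with a log2 fold change of 0.74 (SE 0.147, 1.67-fold, edgeR adjusted p = 0.0064). With the tubule segment covariate it was 0.40 and was not called (edgeR adjusted p = 0.431). Adipocyte markers in the kidney summed to 715 to 1162 FPM in WT-SFD, 329 to 663 FPM in WT-HFD, 700.4 to 1699 FPM in KO-SFD and 337 to 688 FPM in KO-HFD mice, so that the diets did not overlap within a genotype. Lpl alone made up most of this sum (median 606 of 694 FPM), while Adipoq (adiponectin), a defining fat cell gene, was at 1.36 to 12.7, 2.33 to 5.66, 1.84 to 31.7 and 1.06 to 9.81 FPM in the same 4 groups, which overlapped. Of 11 tested for HFD averaged over the genotypes, 1 rose (Lep, leptin) and 2 fell (Cfd, adipsin, and Lpl), against 4.62% of all genes called. With the tubule segment covariate Lep, Cfd and Lpl were not called (edgeR adjusted p = 0.176, 0.132 and 0.0820). Over the alternatives other than leaving out a kidney, their log2 fold changes were 2.12 to 4.02, −3.89 to −3.26 and −1.08 to −1.07. The part of these markers in the results of the kidney was not tested.

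Genes whose pattern was most like that of a member were found from Pearson's r of log2 values over the libraries of a tissue, as a description. In the kidney (16 libraries, which share the contrast of diet), Ugt2b34 (r = 0.970) and Igsf9 (0.966) were among the 3 genes most like Sox9, and Hpgds (0.908) and Mpeg1 (0.879), the latter a gene of macrophages, among those most like Vcam1. Klf5 was followed by Myof (0.954), Fam3c (0.927) and Styk1 (0.922), Spp1 by Fbxo2 (0.844) and Mgp by Insl6 (0.871) and the matrix gene Sparc (0.865). In the aorta (14 libraries), Mgp was followed by Serpine2 (0.945), a protease inhibitor, Slit3 (0.914) and Cux1 (0.900). Klf4 was followed there by Yeats4 (0.854) and Ly6a by the chemokine gene Ccl6 (0.888).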

How the data were processed

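RNA of 14 aortas and 16 kidneys was sequenced paired-end after removal of ribosomal RNA. The authors trimmed the reads with cutadapt, aligned them to GRCm38/mm10 with TopHat and counted them per gene with featureCounts, according to the submitters' processing notes and the methods. The deposited values are raw counts, 1 column per mouse. No gene of several regions, among them whole chromosomes, had a count in any library, so that listed genes such as Tagln, Cnn1, Tpm1, Bgn, Timp1, Tgfbr2, Nt5e, Bmper, Smad6, Itga9, Itgb1 and Cdh5 could not be read. Groups followed the labelled genotype and diet. Of the library numbers, 3 occur in both tissues and none in 2 groups of a tissue.

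Each tissue was fitted on its own with edgeR 4.0.16 (R 4.3.3): filterByExpr, TMM factors (0.862 to 1.24 in the aorta, 0.900 to 1.10 in the kidney), glmQLFit and glmQLFTest with 1 coefficient per group. The methods' limit of 0.001 was run as an alternative to 0.05. Positions came from GENCODE vM21. The genes named are the 10 members, listed genes past the threshold, the markers used as checks and the genes most like a member. Members and lists were chosen with earlier results of these data known. Alternatives were DESeq2 1.42.0, other scalings and filters, covariates for fat cells or tubule segments, and leaving out each library in turn. The code was tested on simulated data. A few genes are left out of the text.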

Additional observations from a re-analysis of the deposited data

Results flagged for a closer look

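In the kidney, Sox9 in KO-HFD-1437 was at 1.25 FPM, while the other KO-HFD kidneys were at 3.29 to 3.42 FPM. It was marked because its gap to the nearest of them was large for a group of 4 (Dixon's test at the 95% level). It was still above every SFD kidney. By the same test, Lgals3 in WT-SFD-1446 stood apart in the kidney at 71.4 FPM, the next being at 43.4 FPM and the lowest at 38.9 FPM. In 60 groups of 4 tested in this way, 2 were marked, and chance marks about 1 in 20.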

How the results depend on the processing

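Sox9 in the kidney was past 0.05 under every alternative fit, though in WT the edgeR fit did not pass the stricter 0.001, with log2 fold changes of 1.98 to 2.51 in WT, 2.74 to 3.13 in KO and 2.43 to 2.70 averaged when single libraries were left out. Mgp in the aorta was 0.50 averaged over the genotypes and was called in 6 of 14 repeats without 1 library (0.43 to 0.60). It was not called with library totals in place of TMM (0.49, edgeR adjusted p = 0.0869) or with the adipocyte covariate (0.30), where the cause was not tested. The number of members called moved as follows. In the aorta it was 0 for HFD in WT and 0 to 1 without single libraries (Mgp, 0.55 without WT-SFD-1445, edgeR adjusted p = 0.0467). Averaged over the genotypes it went from 1 to 0 with library totals, with the adipocyte covariate and at an adjusted p under 0.001, and was 0 to 1 without single libraries. In the kidney it went from 1 to 2 for HFD in WT with DESeq2 (Vcam1 added) and to 0 at 0.001, and averaged over the genotypes from 2 to 1 at 0.001, with 2 to 3 without single libraries. Signs turned for the difference of the Mgp diet effect between the genotypes (0.20, and −0.046 with library totals) and for that of Vcam1 in the kidney (−0.05, and 0.040 with the tubule segment covariate, 0.031 without WT-SFD-1309, 0.038 without WT-HFD-1535, 0.019 without KO-SFD-1451 and 0.065 without KO-HFD-1520, with −0.18 to 0.065 over all single libraries). Spp1 in the kidney turned from −0.30 to 0.057 with the tubule segment covariate, and was called without WT-SFD-1695 (−0.37, edgeR adjusted p = 0.0497). With the adipocyte covariate the fat cell genes Elovl3, Plin1, Pparg and Ucp1 turned to 0.76, 0.15, 0.43 and 1.95, by construction of the covariate from such genes. Library totals shifted the median gene of the aorta by 0.11 for HFD in WT, −0.11 for HFD in KO, 0.29 for KO on SFD, 0.18 for KO averaged and −0.22 for the difference of the diet effects, and no median of the kidney by more than 0.02. The legacy form of edgeR's test was chosen after seeing the data. No paired analysis was possible because no library number occurs in 2 groups of a tissue. Depth limited Spp1 in the aorta and Tnfrsf11b in the kidney, and the Sox9 levels of SFD kidneys rest on 3 to 19 counts each. With 3 or 4 mice per group a log2 fold change between the diets in WT had a median SE of 0.227 for aortas and 0.166 for kidneys.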
